A study of Mus musculus with 4 samples.

Results

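The genes described here are 10 members of the Vgll, TEAD and YAP pathway, of 18193 genes named on the arrays. They are the cofactor genes Vgll3, Vgll4, Yap1 and Wwtr1, the transcription factor genes Tead1, Tead2, Tead3 and Tead4, and the target genes Ccn1 and Ccn2. They were chosen by name, after the large differences of Vgll3 and Ccn2 between the lines were known, and every probe set that the platform annotation assigns to one of them alone was taken, 20 in all. Because the choice used this comparison, the values of these genes are given as a description, with no test. The study used Affymetrix mouse arrays, with 2 groups of 2 arrays each. NSCL61 is a C57BL/6 p53-/- line of neural stem cells from embryonic day 14.5 mouse telencephalon, labelled as similar to glioma-initiating cells, and NSCL61-sox11 is the same line expressing sox11. Both lines thus lack p53, and the labelled growth conditions, floating spheres in serum-free medium with insulin, forskolin, PDGF and bFGF, are shared. How Sox11 was introduced, and whether the line is 1 clone, are not given in the sources used here. According to the design text the derivative no longer formed tumours in vivo, and the arrays were compared to find genes that differ between the lines. The arrays of a line are not stated to come from separate cultures, so the errors and p-values given here may cover technical spread alone.

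YAP, encoded by Yap1, and TAZ, encoded by Wwtr1, are coactivators that do not bind DNA themselves. They act through the TEAD factors, and the Hippo kinases restrain them by keeping them in the cytoplasm. Vestigial-like proteins bind the same TEAD factors through their Tondu domain: Vgll4 competes with YAP, while Vgll3 is known as a TEAD cofactor in myogenic and mesenchymal cells. Ccn1 and Ccn2 encode secreted matricellular proteins, formerly CYR61 and CTGF, and are among the most used readouts of YAP and TAZ. In the developing brain this pathway is known for regulating the growth of neural progenitors.

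The TEAD factors bind the MCAT element, GGAATG, and its presence was looked up in promoters from RefSeq (assembly GRCm38.p6), which run from 250 bases before to 50 bases after an annotated start site. Promoters were found for 7 of the 10 genes, in 10 windows; those of Tead1, Tead4 and Ccn2 were not used here. GGAATG or its reverse complement CATTCC was found in 8 of these 10 windows, and in 6 of the 7 genes, against 14.7% of all 32851 windows of the same length. The genes were Vgll3, Vgll4, Yap1, Wwtr1, Tead3 and Ccn1, and the exception was Tead2. The windows are not independent, since both Wwtr1 windows hold the same match and Tead3 has 3 windows. Their G and C content was 57% to 75.3%, above the median of 52.7% over all windows. The shares over all windows were not matched for this, and they count windows and not genes. For SOX factors, only the exact letters AACAAT and their reverse complement ATTGTT were searched. They were found in 0 of the 10 windows, against 10.7% of all. Variants of the SOX element with other letters were not searched, so this does not show that the windows lack SOX elements. A match describes these letters alone and does not show that a factor binds there.

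A stretch of 60 bases around a match is shown for each of the 6 genes, read along the gene's strand, with the 6 matching bases in capitals, so that the shared element can be seen in its context. Tead3 has 3 more matches in a second window, not shown; its stretch is from the window with a single match:
Vgll3: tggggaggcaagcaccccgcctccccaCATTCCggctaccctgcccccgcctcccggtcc
Vgll4: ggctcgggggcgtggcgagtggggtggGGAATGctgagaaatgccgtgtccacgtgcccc
Yap1: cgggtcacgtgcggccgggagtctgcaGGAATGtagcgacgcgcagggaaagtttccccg
Wwtr1: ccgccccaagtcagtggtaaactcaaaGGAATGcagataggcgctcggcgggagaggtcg
Tead3: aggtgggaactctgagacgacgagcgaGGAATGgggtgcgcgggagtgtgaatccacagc
Ccn1: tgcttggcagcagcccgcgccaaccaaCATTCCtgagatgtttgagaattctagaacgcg
The Vgll3 stretch lies at chr16:65815099-65815158 on the plus strand, and its match starts 63 bases before the start site. The others lie on the minus strand. The Vgll4 stretch is at chr6:114969253-114969312, with the match 82 bases before the start site, and the Yap1 stretch at chr9:8004705-8004764, with the match 141 bases before it. The Wwtr1 stretch is at chr3:57576014-57576073, 136 bases before the nearer of 2 start sites, and the Tead3 stretch at chr17:28350955-28351014, 182 bases before the start site of that window. The Ccn1 stretch is at chr3:145650056-145650115, 103 bases before its start site. In the Vgll3 and Ccn1 stretches the element reads as CATTCC along the gene, and in the other 4 stretches as GGAATG.

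All values below are the deposited log2 values, and differences are NSCL61-sox11 minus NSCL61 with a moderated SE from limma. A probe set is a group of probes read as 1 value, and levels of different probe sets are not comparable with each other. Each of the 6 probe sets of Sox11 read higher in NSCL61-sox11, with 4.95 ± 0.19 and 7.85 ± 0.16 (SD, n = 2 each) on the brightest. That probe set, with 2.90, had the largest difference, and 1453002_at, with 0.38, the smallest. The Sox11 probe sets 1429372_at and 1453125_at were too low to be tested. The neural stem cell markers Nes and Vim were bright in both lines, while Sox2 was lower and Slc1a3 higher in NSCL61-sox11. Fabp7 and Prom1 lay on every array below 5.15, the level under which probe sets were not tested. The NSCL61 mean of the brightest Sox11 probe set, 4.95, is also below this level. The limma fit over all 27022 tested probe sets called 17.3% of them at a Benjamini-Hochberg adjusted p under 0.05, 8.99% as higher and 8.32% as lower in NSCL61-sox11.

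All 20 probe sets of the 10 genes passed the level filter. In that fit 5 of them lay past the threshold as higher and 4 as lower, and no conclusion is drawn from this count because of how the genes were chosen. The arrays of the lines did not overlap on 15 of the 20 probe sets, 6 higher and 9 lower in NSCL61-sox11. Of all tested probe sets 60.5% did not overlap, 28.1% higher and 32.4% lower, so with 2 arrays per line not overlapping is the usual outcome. The median difference over the 20 probe sets was -0.31, beside -0.02 over all tested probe sets, but leaving out NSCL61 array 1 gave 0.035 and leaving out array 2 of NSCL61-sox11 gave -0.033. Over the 10 genes by their brightest probe set the median was 0.068, beside -0.02 over all genes, so the set has no common direction. The genes did not move as a block: Vgll3 and Ccn2 lay far above the others, most TEAD, YAP and TAZ probe sets were lower, by 0.29 to 0.94, and Ccn1 had no common direction. Scaling the arrays to the poly-A spike-in controls, a set of RNAs added during labelling, lowers every difference by the same amount and moves the median of all probe sets to -0.42. Scaling to the hybridisation controls moves it to -0.24, so directions given here are relative to the deposited scale. Both scalings also shift the arrays of a line against each other. The poly-A controls averaged 7.32 and 7.03 on the NSCL61 arrays and 7.74 and 7.42 on those of NSCL61-sox11. This changes the spread within a line and the fitted variance for all probe sets together. A call lost or gained under these scalings therefore need not mean a smaller or larger difference.

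**Figure D1:**
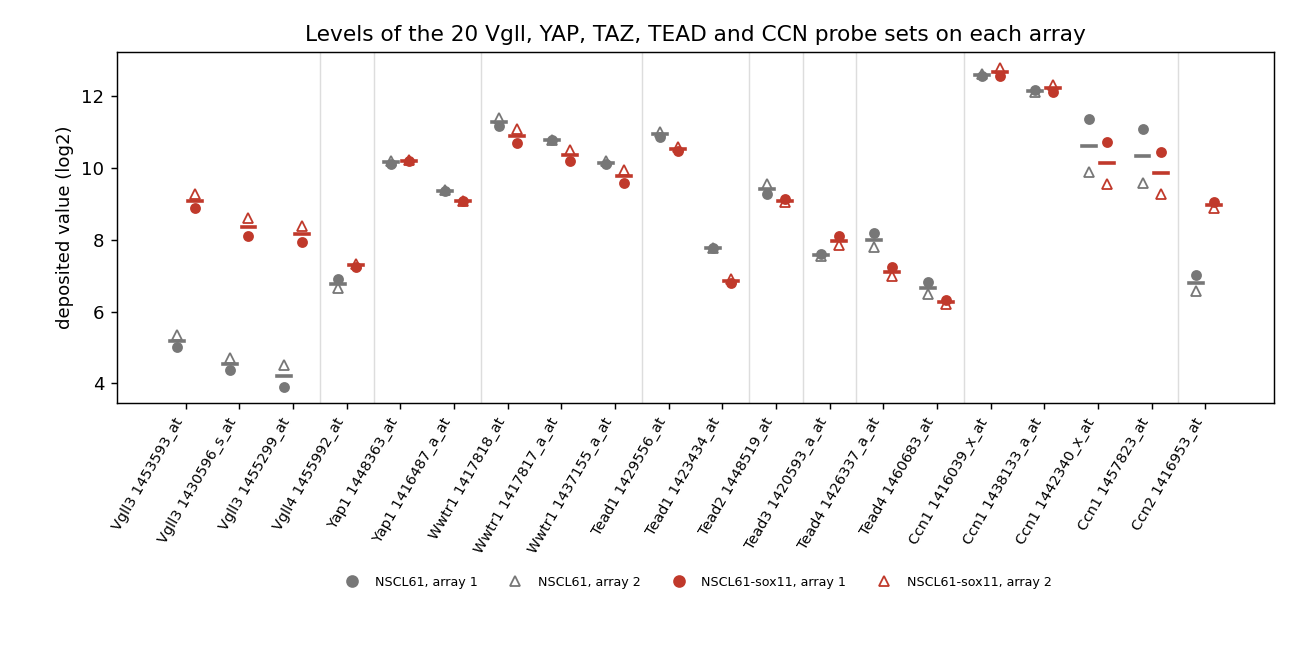
Deposited log2 value (vertical axis) of each of the 20 probe sets (horizontal axis) on each of the 4 arrays. Grey marks NSCL61 and red NSCL61-sox11, circles array 1 and triangles array 2 of a line, and short lines the mean of a line. The 3 Vgll3 probe sets and Ccn2 are well separated between the lines, and 2 Ccn1 probe sets are spread by array number within both lines.

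Among the cofactors, Vgll3 had the largest difference of the 10 genes and was higher in NSCL61-sox11 on all 3 of its probe sets. On the brightest, 1453593_at, the NSCL61 arrays read 5.03 and 5.36 and the NSCL61-sox11 arrays 8.89 and 9.26. The nearest arrays of the lines are thus much further apart than the arrays of a line. The difference was 3.88 (SE 0.17), or 14.8-fold, the third highest of 13084 genes represented by their brightest probe set. On 1430596_s_at the arrays read 4.39 and 4.70 in NSCL61 and 8.11 and 8.60 in NSCL61-sox11, a difference of 3.81 (SE 0.19). On 1455299_at they read 3.90 and 4.51 in NSCL61 and 7.93 and 8.38 in NSCL61-sox11, a difference of 3.95 (SE 0.23). The NSCL61 mean lay just above the filter level of 5.15 on 1453593_at, at 5.19, and below it on the other 2 probe sets, at 4.55 and 4.20, which passed the filter only through NSCL61-sox11 and add no support. At such low values an array signal contains much background, so the size of the difference is uncertain.

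Vgll4, which competes with YAP for TEAD, was also higher in NSCL61-sox11 on its single probe set, by far less. Its arrays read 6.89 and 6.64 in NSCL61 and 7.24 and 7.33 in NSCL61-sox11, a difference of 0.52 (SE 0.12), or 1.43-fold. The arrays did not overlap, but with poly-A scaling the difference shrank to 0.11. The other 2 vestigial-like genes on the array lay near the level filter in both lines. Vgll1 read 5.06 ± 0.08 and 5.13 ± 0.0047 (SD, n = 2 each) and fell below it, and Vgll2 read 5.12 ± 0.12 and 5.27 ± 0.14 (SD, n = 2 each). Their differences were 0.07 (SE 0.11, limma adjusted p = 0.78 in the fit of all probe sets) and 0.15 (SE 0.12, limma adjusted p = 0.47). Vgll3 was thus the vestigial-like gene with by far the largest measured difference, though differences between these genes were not tested.

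Yap1 differed little between the lines, and its probe sets did not share a direction. On 1448363_at the arrays read 10.11 and 10.20 in NSCL61 and 10.18 and 10.22 in NSCL61-sox11. These overlap, with a difference of 0.04 (SE 0.08), which became -0.36 with poly-A scaling and -0.17 with hybridisation control scaling. On 1416487_a_at they read 9.34 and 9.38 in NSCL61 and 9.08 and 9.06 in NSCL61-sox11, a difference of -0.29 (SE 0.08) with no overlap. The suffix _a_at marks probes that match several transcripts of 1 gene, and which transcripts each Yap1 probe set reads was not examined.

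Wwtr1, which encodes TAZ, was lower in NSCL61-sox11 on all 3 of its probe sets, on the deposited scale and with every scaling run. On 1417818_at the arrays read 11.17 and 11.38 in NSCL61 and 10.68 and 11.07 in NSCL61-sox11, a difference of -0.40 (SE 0.14). On 1417817_a_at they read 10.77 and 10.77 against 10.18 and 10.51, a difference of -0.43 (SE 0.11), and on 1437155_a_at 10.10 and 10.18 against 9.58 and 9.94, a difference of -0.38 (SE 0.13). No NSCL61-sox11 array reached an NSCL61 array, but NSCL61-sox11 array 1 was the lower on each probe set, by 0.33 to 0.39. Without that array the differences were smaller, -0.20 to -0.26, and of the same sign.

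The TEAD genes Tead1, Tead2 and Tead4 were lower in NSCL61-sox11 on every probe set and Tead3 was higher. Tead1, the TEAD gene with the broadest expression, read 10.85 and 11.00 in NSCL61 and 10.47 and 10.58 in NSCL61-sox11 on 1429556_at, a difference of -0.40 (SE 0.09). On 1423434_at it read 7.77 and 7.78 against 6.78 and 6.90, a difference of -0.94 (SE 0.10), or 1.91-fold lower. Both Tead1 probe sets thus had the same direction but not the same size.

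Tead4, known for its role in trophectoderm and muscle, read 8.19 and 7.80 in NSCL61 and 7.23 and 6.99 in NSCL61-sox11 on 1426337_a_at, a difference of -0.88 (SE 0.16). By this probe set, its brightest, Tead4 was the 226th lowest of 13084 genes. On 1460683_at it read 6.82 and 6.50 against 6.31 and 6.21, a smaller difference of -0.40 (SE 0.13). The arrays did not overlap on either. Tead2, the TEAD gene of early embryos and neural progenitors, read 9.27 and 9.56 in NSCL61 and 9.13 and 9.03 in NSCL61-sox11, a difference of -0.33 (SE 0.12). Its arrays did not overlap, but the nearest arrays of the lines were closer than the 0.29 between the arrays of NSCL61.

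Tead3, a TEAD gene prominent in placenta, read 7.61 and 7.55 in NSCL61 and 8.09 and 7.85 in NSCL61-sox11, a difference of 0.39 (SE 0.11). It was the only TEAD gene higher in NSCL61-sox11, and this direction depended on the scale, as the difference was 0.17 with hybridisation control scaling and -0.015 with poly-A scaling. The 5 other TEAD probe sets stayed lower under every scaling, filter and left-out array for which they were fitted.

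**Figure D2:**
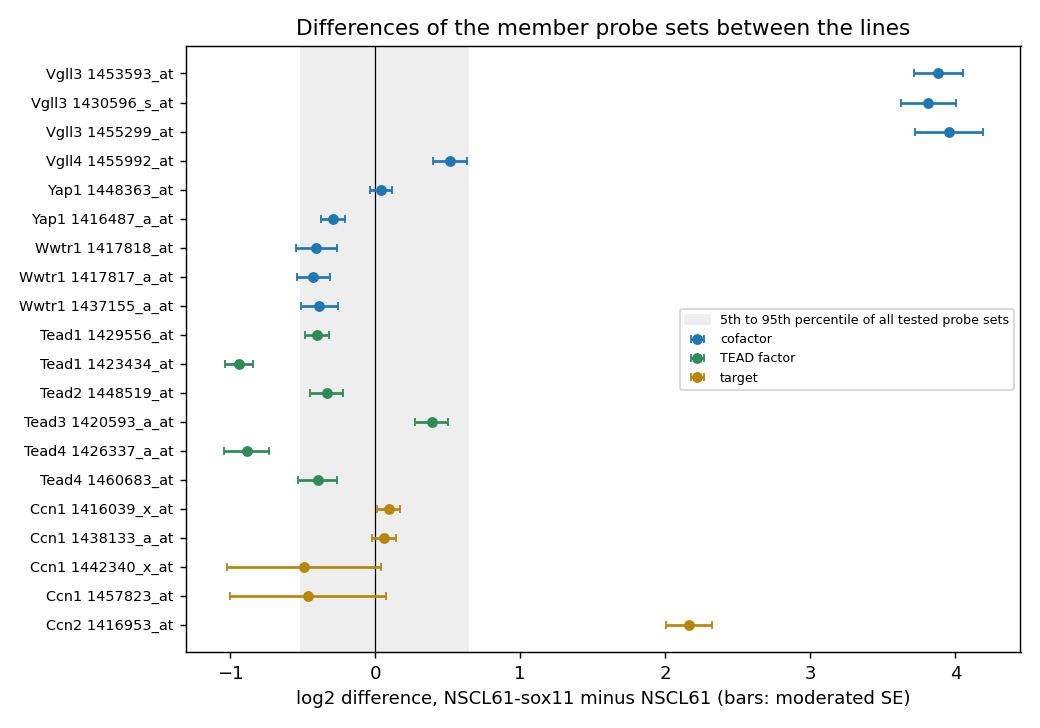
Log2 difference between the lines (horizontal axis, NSCL61-sox11 minus NSCL61) for each of the 20 probe sets, with bars for the moderated SE and colours for the role of the gene. The grey band spans the 5th to 95th percentile of all tested probe sets, -0.51 to 0.64. The Vgll3 and Ccn2 probe sets lie above the band, 1 probe set each of Tead1 and Tead4 lies below it, and the others have estimates inside it.

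Of the target genes, Ccn2 was higher in NSCL61-sox11 and Ccn1 was not separated. Ccn2, on its single probe set, read 7.02 and 6.58 in NSCL61 and 9.04 and 8.89 in NSCL61-sox11. The lines do not overlap, and the difference of 2.16 (SE 0.16), or 4.48-fold, was the 88th highest of 13084 genes. With poly-A scaling it was 1.76.

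Ccn1 was bright on 2 probe sets that barely differed between the lines. On 1416039_x_at the arrays read 12.54 and 12.59 in NSCL61 and 12.55 and 12.77 in NSCL61-sox11, a difference of 0.09 (SE 0.08). On 1438133_a_at they read 12.17 and 12.11 against 12.10 and 12.31, a difference of 0.06 (SE 0.08). The arrays overlap on both, and both differences are below 0 with either control scaling and without NSCL61-sox11 array 2.

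The other 2 Ccn1 probe sets varied more between the arrays of a line than between the lines. On 1442340_x_at NSCL61 read 11.36 and 9.88 and NSCL61-sox11 10.71 and 9.55, and on 1457823_at NSCL61 read 11.08 and 9.58 and NSCL61-sox11 10.45 and 9.28. Array 1 of each line was higher than array 2 by at least 1.16, while the differences between the lines were -0.49 (SE 0.53) and -0.47 (SE 0.54) and turned positive without NSCL61 array 1 or NSCL61-sox11 array 2. Of 27022 tested probe sets, 3 were higher on array 1 by over 1 in both lines, and 2 of them are these Ccn1 probe sets. Another 27 were higher on array 2 by over 1 in both lines, among them probe sets of the immediate early genes Fos, Fosb and Egr2, and 0 differed by over 1 in opposite directions. Suffix _x_at marks probes that may also match other transcripts. What these 2 probe sets detect that the brighter pair does not was not tested.

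The remaining CCN genes, which encode related matricellular proteins, were fitted with all other genes and tested. Ccn4, known as a Wnt-induced gene, rose on both of its probe sets. On 1448593_at it read 7.76 and 7.73 in NSCL61 and 9.48 and 9.64 in NSCL61-sox11, a difference of 1.82 (SE 0.10, limma adjusted p = 0.00019), and on 1448594_at the difference was 1.88 (SE 0.13, limma adjusted p = 0.00041). Arrays within a line were close and the lines far apart.

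Ccn3, a growth-restraining member of the family, rose on 1 of its 2 probe sets, by 1.00 on 1426851_a_at (SE 0.25, limma adjusted p = 0.038). The difference on its brighter probe set, 1426852_x_at, was 1.13 (SE 0.31, limma adjusted p = 0.056). Its arrays read 6.20 and 7.08 in NSCL61 and 7.46 and 8.08 in NSCL61-sox11, so the spread within the lines was large, and it passed without NSCL61 array 2 (limma adjusted p = 0.029) or NSCL61-sox11 array 1 (limma adjusted p = 0.018). Ccn5 read 7.54 and 8.22 in NSCL61 and 8.46 and 10.17 in NSCL61-sox11, a difference of 1.43 that did not pass (SE 0.52, limma adjusted p = 0.11). Ccn6 lay below the level filter on every array, at 4.14 to 4.29.

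**Figure D3:**
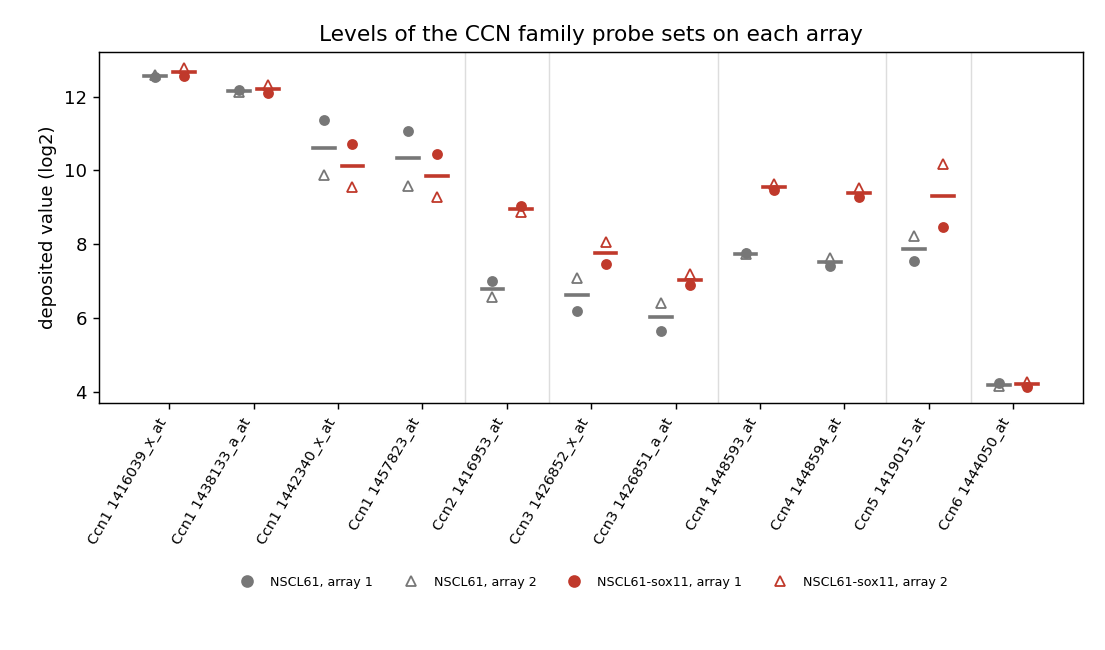
Deposited log2 value (vertical axis) of each CCN family probe set (horizontal axis) on each of the 4 arrays, with colours and marks as in the plot of the 20 probe sets. Ccn2 and both Ccn4 probe sets separate the lines, 2 Ccn1 probe sets overlap closely, 2 are spread by array number, and Ccn6 is at 4.14 to 4.29 throughout.

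Among other readouts of the pathway, some genes rose, some fell, and 10 of 20 did not pass the test. A published signature of YAP and TAZ targets, taken without Ccn1 and Ccn2, has 20 genes, all tested. Of these, 7 rose, 3 fell and 10 did not pass (limma adjusted p under 0.05), or 50% called beside 19.2% of all 13084 genes, of which 10% rose and 9.19% fell. Their median difference was 0.40, beside -0.02 over all genes, and became -0.00073 with poly-A scaling. Leaving out 1 NSCL61 array lowered the rises and falls to 5 and 1 (array 1) or 4 and 1 (array 2), and poly-A scaling to 3 and 2, while hybridisation control scaling gave 5 of each. The rise of Tgfb2 was known when the list was chosen, and 3 genes are shared with the regulator lists described next; the other 17 had 5 rises, 3 falls and a median of 0.20.

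The largest rise of the signature was that of Ccdc80, a secreted matrix-associated protein gene, which read 5.33 and 5.25 in NSCL61 and 7.39 and 7.91 in NSCL61-sox11, a difference of 2.37 (SE 0.18, limma adjusted p = 0.00061). Its other tested probe set rose by 0.53. The NSCL61 mean of the first, 5.29, lay just above the filter level, so the size of the rise is uncertain. Tgfb2, a TGF-beta ligand gene, rose by 2.14 (SE 0.27, limma adjusted p = 0.0045), with all 4 of its probe sets called, at 1.21 to 2.39. The forkhead factor gene Foxf2 read 5.07 and 4.80 in NSCL61 and 6.67 and 6.11 in NSCL61-sox11, a rise of 1.46 (SE 0.20, limma adjusted p = 0.0057). Its NSCL61 mean, 4.93, is below the filter level, so it was tested only through NSCL61-sox11 and the size of its rise is uncertain. Ccdc80 and Tgfb2 kept their call in every alternative in which they were fitted.

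Smaller rises were those of the RNA-binding protein gene Rbms3, by 0.88 on its brightest probe set and by up to 2.47 on its others, the angiomotin-like gene Amotl2 by 0.72, the kinase gene Nuak2 by 0.59 and the Hippo kinase gene Lats2 by 0.55. Rbms3 lost its call without NSCL61 array 2 (limma adjusted p = 0.057), and Nuak2 and Lats2 without either NSCL61 array (limma adjusted p = 0.067 to 0.095). With poly-A scaling all 4 lost it (limma adjusted p = 0.26 for Rbms3, 0.37 for Amotl2, 0.61 for Nuak2 and 0.70 for Lats2), and with hybridisation control scaling Nuak2 and Lats2 did (limma adjusted p = 0.12 and 0.18). For Lats2 only 1 of 4 tested probe sets was called, and its name ends in _x_at.

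The largest of the 3 falls was that of Igfbp3, which binds insulin-like growth factors and read 12.30 and 12.53 in NSCL61 and 10.39 and 10.95 in NSCL61-sox11, a difference of -1.74 (SE 0.18, limma adjusted p = 0.0020), and its second probe set fell too. Igfbp3 kept its call under every scaling, filter, variance model and probe set rule, and without 1 array its difference was -1.47 to -2.02. The receptor tyrosine kinase gene Axl fell by 0.35 (limma adjusted p = 0.0083) and the guanine nucleotide exchange factor gene Arhgef17 by 0.42 (limma adjusted p = 0.040), with 1 of 4 tested probe sets called. With the mean of its probe sets Arhgef17 differed by -0.045 (limma adjusted p = 0.79), and it also missed the threshold without the intensity trend (limma adjusted p = 0.057). With poly-A scaling the difference of Axl was -0.76, and it did not pass (limma adjusted p = 0.056). Axl lost its call without either NSCL61 array (limma adjusted p = 0.081 and 0.11), and Arhgef17 without any 1 of the 4 arrays (limma adjusted p = 0.052 to 0.25). Among those that did not pass, Ankrd1, a muscle ankyrin repeat gene much used as a YAP readout, differed by 0.59 (SE 0.29, limma adjusted p = 0.22).

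**Figure D4:**
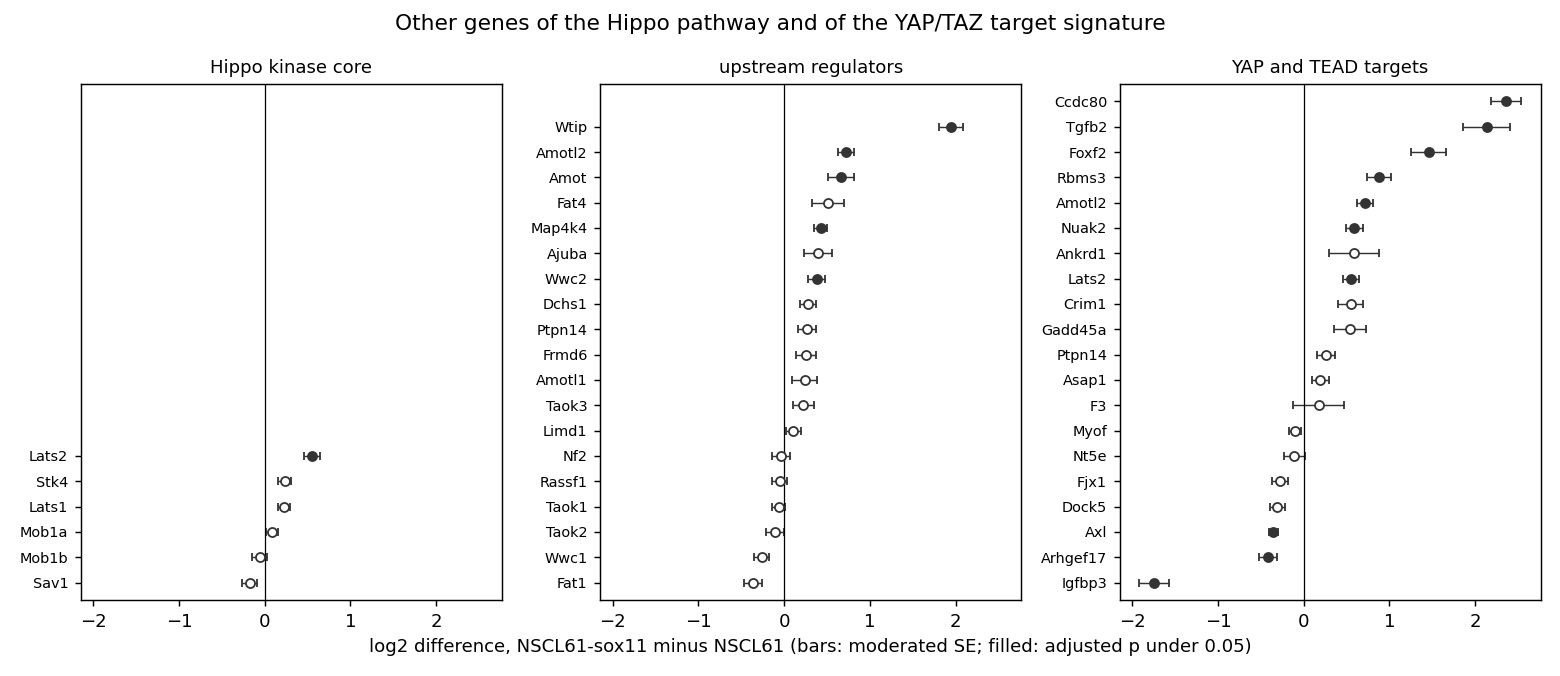
Log2 difference between the lines (horizontal axis, NSCL61-sox11 minus NSCL61) for the brightest tested probe set of each gene of the Hippo kinase core (left), its upstream regulators (centre) and the YAP and TAZ target signature (right), with bars for the moderated SE. Filled points passed an adjusted p under 0.05, and these are 1 of 6, 5 of 19 and 10 of 20 genes.

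Among the kinases and scaffolds that act on YAP and TAZ, most genes did not pass the test, and the 6 that passed on the deposited scale rose. With 2 arrays per line small changes are seldom called, so not passing does not show that a gene is unchanged. Of the kinase core, 6 of 7 genes were named on the array (Stk3 was not), and Lats2 rose while the other 5 did not pass, or 16.7% called. Lats1, its paralogue, differed by 0.23 (SE 0.07, limma adjusted p = 0.084), and Stk4, the MST1 kinase gene, by 0.24 (SE 0.08, limma adjusted p = 0.086). Of 19 upstream regulators, 5 rose, 0 fell and 14 did not pass, or 26.3% called. Both lists together had 24% called, beside 19.2% of all genes. Over both lists the median was 0.23, and -0.17 with poly-A scaling, and the 6 rises became 2 without NSCL61 array 1, 3 without NSCL61 array 2, 2 with the mean of a gene's probe sets and 1 with poly-A scaling. Falls appeared in other alternatives: 2 rises and 2 falls with hybridisation control scaling, 5 and 1 with median centring, 8 and 1 without NSCL61-sox11 array 1, and 6 and 1 without its array 2. Lats2 and Amotl2 are also in the target signature.

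Wtip, a LIM protein gene of the Ajuba family whose products bind LATS kinases, had the largest of these rises and the only one that held in every alternative in which it was fitted. It read 6.53 and 6.77 in NSCL61 and 8.75 and 8.45 in NSCL61-sox11, a difference of 1.94 (SE 0.14, limma adjusted p = 0.00055). The other Ajuba family genes, Ajuba (0.40, SE 0.16, limma adjusted p = 0.16) and Limd1 (0.11, SE 0.09, limma adjusted p = 0.47), did not pass. The angiomotin genes Amotl2 and Amot, which hold YAP at junctions, rose by 0.72 and 0.66, and Amot lost its call without NSCL61 array 1 (limma adjusted p = 0.14) or NSCL61-sox11 array 2 (limma adjusted p = 0.052), with poly-A or hybridisation control scaling (limma adjusted p = 0.46 and 0.051) and with the mean of its probe sets (limma adjusted p = 0.095). The kinase gene Map4k4 rose by 0.43, on 1 of 4 tested probe sets, and the WW-domain scaffold gene Wwc2 by 0.38. Without probe sets ending in _x_at or _s_at Map4k4 differed by 0.037 (limma adjusted p = 0.85), and with the mean of its probe sets by 0.23 (limma adjusted p = 0.10). Wwc2 lay near the threshold and missed it with median centring, no filter, no intensity trend or the mean of its probe sets (limma adjusted p = 0.053 to 0.074). Both lost their call without either NSCL61 array (limma adjusted p = 0.10 to 0.26), Wwc2 also without NSCL61-sox11 array 1 (limma adjusted p = 0.10), and with poly-A scaling they differed by 0.021 and -0.027. With hybridisation control scaling neither passed (limma adjusted p = 0.38 and 0.49). The merlin gene Nf2 differed by -0.04 (SE 0.11, limma adjusted p = 0.85).

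Many CCN genes and signature targets are also expressed by fibroblasts and mural cells, and some markers of these cells rose too, beside 10% of all genes. Of 10 markers of fibroblasts and meninges, 8 were tested, of which 6 rose and 0 fell. Dcn (0.36) and Col3a1 (1.04) did not pass, and Lum and Thy1 lay below 5.15 on every array. The log2 of their summed linear level was 11.24 and 11.78 on the NSCL61 arrays and 12.89 and 13.47 on the NSCL61-sox11 arrays. Much of each sum is Fn1, with means of 10.48 in NSCL61 and 11.96 in NSCL61-sox11, and Col3a1, with 9.65 and 10.69. These sums therefore say less about the other markers. Of 8 endothelial and mural markers, 6 were tested, of which Rgs5 and Acta2 rose, 0 fell and 4 did not pass, among them Cdh5 (-0.59) and the mural marker Cspg4 (-0.07). Their log2 sums were 8.93 and 8.94 against 9.69 and 9.93, and Pecam1 and Tek lay below 5.15 on every array. Of 5 microglial and blood cell markers, Ptprc, Aif1, Itgam and Cx3cr1 did so too. The other, Csf1r, read 6.50 to 6.77 over the arrays and did not pass (-0.15, limma adjusted p = 0.40). Of 4 neuronal markers, 2 were tested, of which Syt1 rose by 0.62 (limma adjusted p = 0.011) and Rbfox3 did not pass (-0.08). Of 5 tested neural stem cell markers, Slc1a3 rose by 1.19 (limma adjusted p = 0.0030). Sox2 fell by 1.70 (limma adjusted p = 0.0019) and Vim by 0.21 (limma adjusted p = 0.020). The log2 sums of these markers were 14.51 and 14.56 against 14.24 and 14.33. Most of each sum is Vim alone, with means of 14.38 in NSCL61 and 14.17 in NSCL61-sox11, so the sums say little about the other markers. The part of these markers in the differences of Ccn2, Vgll3 and the signature was not tested, and in bulk RNA more cells of a type and more RNA per cell cannot be told apart.

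The genes closest to Vgll3 in their pattern over the 4 arrays, by Euclidean distance after subtracting each probe set's NSCL61 mean, were Eya4 (distance 0.24), Gnai1 (0.55) and Defb41 (0.69). They encode a coactivator phosphatase, a G protein subunit and a defensin, with differences of 3.84, 3.55 and 3.40. The NSCL61 mean of Defb41, 3.64, is below the filter level, so this gene was tested only through NSCL61-sox11 and the size of its difference is uncertain. Closest to Ccn2 were Tmem176b (distance 0.29), Gpr85 (0.30) and Armc2 (0.30), with differences of 2.19, 2.00 and 2.04. With 4 arrays this likeness mainly reflects the size of the difference between the lines.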

How the data were processed

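Biotin-labelled copies of total RNA from 4 samples were read on M430_2 arrays, per the labels. For each of 45101 probe sets the authors deposited a processed log2 value per array; the log base is inferred from a range of 2.13 to 14.62, and the summarisation and normalization are not given in the sources used here. No scaling was added, as array medians were 5.73 to 5.77. No depth applies to arrays, and their number limits the precision. Genes were named through GEO's platform annotation, checked by gene identifier against RefSeq (GRCm38.p6), which updated 0 symbols; 34945 probe sets have 1 symbol, 932 several.

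Levels are given with SD, differences with moderated SE. The comparison used R 4.3.3 and limma 3.58.1 (lmFit, eBayes with intensity trend, two-sided, Benjamini-Hochberg, called under 0.05) on the brightest 60% of probe sets by mean over all arrays, 27022 in number; 64 control probe sets were left out. A gene is represented by its brightest tested probe set. The scripts were tested on simulated data, in which 8.96% of 1.5-fold, 74.6% of 2-fold and 97.0% of 4-fold changes were called in the right direction. The members and lists were chosen with earlier results of these data known. Named are all members, the rest of both families, called genes of each list (at most 8 by size, beside Axl, Arhgef17 and genes that did not pass, which were chosen after their values were seen), and the 3 genes closest to Vgll3 and to Ccn2. The alternatives were other scalings, filters, variance models and probe set rules, a replicate block, and each array left out. Figures were drawn with matplotlib 3.10.9.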

Additional observations from a re-analysis of the deposited data

How the results depend on the processing

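Among the alternatives, poly-A scaling and the replicate block changed counts by over 1.5 times, as did leaving out either NSCL61 array. Poly-A scaling called 2553 probe sets and 1354 genes in place of 4678 and 2510, with 1 Hippo and 5 target genes called in place of 6 and 10. It left 5 of the 20 member probe sets higher in place of 9, gave differences of 3.48 for Vgll3 and 1.76 for Ccn2, and turned Wwc2 to -0.027. Of the called probe sets 558 were then higher and 1995 lower, against 2429 and 2249 on the deposited scale, and with hybridisation control scaling 1242 and 4656. Leaving out 1 array gave 1639 to 4947 probe sets, 908 to 2692 genes, 2 to 9 Hippo genes and 5 to 11 target genes; the left-out line's lone array is then assumed to vary like the other line. The mean of a gene's probe sets called 2 Hippo genes. The replicate block, which takes the array number as a pair, called 9227 probe sets, 4830 genes, 15 Hippo genes and 16 target genes, and the deviations of same-numbered arrays correlated at 0.41. The labels do not say that numbers mark pairs and there are 2 of them, so the numbers were not used as pairs. The other alternatives (quantile normalization, median centring, no filter, the brightest 40%, no intensity trend, and leaving out _x_at and _s_at probe sets) kept these counts within 1.5 times. Vgll3, Vgll4, Tead1, Tead2, Tead4, Wwtr1 and Ccn2 kept their direction on every probe set in every alternative in which it was fitted; Tead3, 1 Yap1 probe set and all 4 Ccn1 probe sets did not. Median centring called 2164 probe sets as higher and 2550 as lower.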
